A study of Mus musculus with 12 samples.

Results

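Interferon-stimulated genes are the genes that cells switch on when interferons bind their receptors. A list of 35 mouse symbols was followed here in dorsal root ganglia, where the cell bodies of the neurons that sense touch, heat and pain lie next to the spinal cord. Each symbol was matched to a row of the deposited table by its Ensembl gene ID. All 35 matched, out of 38594 rows with such IDs, and all 35 passed the filter on low counts that left 25809 genes to test. The tissue came from naive male C57BL6J mice aged 6 to 12 weeks, killed at zeitgeber time (ZT, hours after lights on) 2, 8, 14 or 20. Lumbar ganglia 1 to 6 were taken, with 3 libraries at each of the 4 times and no treatment or genetic change in any group. Whether the 3 libraries of a time are 3 animals is not in the labels, and the spread that p-values here are set against may then be technical. The comparison between times asks whether transcript levels in the ganglia follow the time of day.

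Type I interferons signal through IFNAR1 and IFNAR2 and the kinases JAK1 and TYK2 to a complex that includes STAT2 and IRF9. That complex binds the interferon-stimulated response element (ISRE) near the start of its target genes. Interferon gamma signals through its own receptor, with JAK1 and JAK2, to factors that bind the gamma-activated site (GAS), and it is a strong inducer of Irf1 and of the guanylate-binding proteins. The induced proteins sense foreign nucleic acid, block the copying and release of viruses, attack the compartments in which microbes live, and feed back on the pathway. Many of these genes keep a low basal level in tissues without infection.

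The sequences just before the start sites are shown first, since the 2 elements named above are short enough to read and differ between members. In the RefSeq promoter table for build GRCm38.p6, which gives 250 bases before to 50 bases after each start, 23 of the 35 members had a window. The core of the ISRE, written GAAANNGAAA and searched on both strands, was in the window of 14 of these 23 members (60.9%), against 3.99% of all 27025 genes in the table. The core of the GAS, TTCNNNGAA, reads the same on both strands and was in 6 of 23 (26.1%), against 9.55% of all genes. The windows of Oas1a, Bst2 and Gbp7 held both cores, and those of Ifi44, Irf7, Irf9, Oasl2, Xaf1 and Trim25 held neither. The ISRE cores of Ddx58 and Ifih1 and the GAS core of Ifi35 lay after the start. Of the 27 windows of these members, 21 had bases after the start that lie in a GENCODE M21 transcript of the gene. A match describes the letters only, and binding was not measured. The stretches below run 5′ to 3′ in the direction of the gene, with the matched cores in capitals. Isg15 is shown for 3 overlapping ISRE cores, Ifit1, Ifit3 and Ifit3b for 2 cores each, Gbp2 and Gbp3 for cores close to the start, and Irf1 for a single GAS core with no ISRE core.
Isg15, chr4:156200819-156200938, minus strand: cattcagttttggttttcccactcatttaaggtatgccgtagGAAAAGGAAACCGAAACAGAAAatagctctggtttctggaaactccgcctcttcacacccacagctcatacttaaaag
Ifit1, chr19:34640769-34640868, plus strand: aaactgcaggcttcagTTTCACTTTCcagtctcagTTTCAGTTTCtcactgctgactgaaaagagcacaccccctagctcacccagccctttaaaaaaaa
Ifit3, chr19:34583329-34583528, plus strand: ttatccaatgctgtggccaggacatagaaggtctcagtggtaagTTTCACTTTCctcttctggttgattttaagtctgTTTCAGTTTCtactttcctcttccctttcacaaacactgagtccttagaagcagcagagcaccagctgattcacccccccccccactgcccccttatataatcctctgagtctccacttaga
Ifit3b, chr19:34607757-34607956, plus strand: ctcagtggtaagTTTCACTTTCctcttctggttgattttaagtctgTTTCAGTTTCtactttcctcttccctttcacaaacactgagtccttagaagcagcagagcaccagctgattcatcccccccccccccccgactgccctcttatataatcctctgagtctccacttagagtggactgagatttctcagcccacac
Gbp2, chr3:142620594-142620623, plus strand: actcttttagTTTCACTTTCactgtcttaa
Gbp3, chr3:142559924-142560023, plus strand: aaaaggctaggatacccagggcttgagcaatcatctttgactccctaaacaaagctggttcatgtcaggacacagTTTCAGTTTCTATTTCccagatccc
Irf1, chr11:53769894-53770013, plus strand: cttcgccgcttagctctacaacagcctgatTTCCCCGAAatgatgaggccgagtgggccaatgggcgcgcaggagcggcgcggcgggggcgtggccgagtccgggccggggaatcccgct
The Ifit3 and Ifit3b stretches share an unbroken run of 119 bases that holds both of their cores, and Ifit1 carries the same pair of cores in the same order. The ISRE core of Gbp2 is identical to the first core of Ifit1. GENCODE M21 starts Gbp2 at chr3:142620602, upstream of the RefSeq start, so most of the Gbp2 stretch, its ISRE core included, lies after that start and within an exon.

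The libraries held totals of 89.8 to 125.0 estimated counts in units of 1000000. Those values look coverage-like and already relative to gene length, though the step that made them is not stated. Levels of different genes are compared here on that reading. They are given as counts per 1000000 (CPM) after scaling between libraries. All 10 sensory neuron markers were present in every library, with a summed level of 17590 to 18720 CPM, as the labelled tissue requires. Transcripts of skeletal muscle varied widely, from a summed 26.6 CPM in ZT20 replicate 2 to 965.5 CPM in ZT20 replicate 1. The library numbers in the labels run in the order of the times, so a preparation batch and the time of day cannot be told apart. In whole ganglia, fewer cells of a type and less RNA per cell cannot be told apart either.

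The members spanned mean levels from 0.282 CPM for Oas3 to 269.9 CPM for Ifi27, with a median of 11.9 CPM. The 6 highest were Ifi27, Oasl2 at 62.6 CPM, Stat2 at 48.4, Ifi27l2a at 47.1, Bst2 at 34.2 and Ifi35 at 31.8 CPM. The oligoadenylate synthetases Oas1a, Oas1b, Oas2 and Oas3 and the GTPases Mx1 and Mx2 all averaged under 4 CPM, so the best-known antiviral enzymes were among the lowest members.

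No member was called different between times. With edgeR's quasi-likelihood test and Benjamini-Hochberg adjustment over all genes, 0 of 35 members had an adjusted p under 0.05 for any difference between the 4 times, where 0.0504% of all genes did. The count was also 0 for a 24-h component (0.0659% of all genes), for a 12-h alternation (0% of all genes) and for at least 1 of the 6 pairs of times (0.0891% of all genes). The lowest adjusted p of a member was 0.65 for any difference and 0.647 for the 24-h component, both for Ifi44, and 0.461 for the alternation, for Ifi27. At an unadjusted p under 0.05 there were 5 members for any difference (6.19% of all genes), namely Ifi44, Ifi27, Mx2, Usp18 and Dhx58. There were 6 for the 24-h component (5.2% of all genes), 1 for the alternation (7.44%) and 12 in at least 1 pair of times (20.3%). DESeq2 called 0 members after adjustment in each of these tests, as did limma-trend, and for any difference between times they gave 8 members (8.06% of all genes) and 5 members (6.71%) at an unadjusted p under 0.05.

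The fitted values nevertheless lay mostly on the same side. Members varied together between libraries of 1 time, with a mean Pearson correlation of 0.60 over their pairs (described below). The counts of members given here and for the other pairs of times and the cosine are therefore not counts of independent observations. The largest median difference of the 6 pairs was that of ZT14 against ZT8, in which 34 of 35 members had a lower fitted value at ZT14, against 50.9% of all genes. The median log2 fold change of the members was -0.37, a 0.773-fold level, and the median of all genes was -0.0025. For 18 members (5.68% of all genes) every ZT14 library was below every ZT8 library. These were Ifit1, Ifit2, Ifit3, Ifit3b, Isg15, Ifi44, Ifi27l2a, Irf7, Oas1a, Oas1b, Oasl2, Mx2, Usp18, Xaf1, Dhx58, Gbp3, Rtp4 and Zbp1. An unadjusted p under 0.05 with a lower level at ZT14 was found for 9 members (2.8% of all genes), and the lowest adjusted p was 0.487, for Usp18. The median stayed between -0.41 and -0.32 over the settings tried, which included leaving out each library.

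Between ZT14 and ZT2 the fitted value was lower at ZT14 in 35 of 35 members, against 50% of all genes, with a median log2 fold change of -0.27. Only 5 of them did not overlap (5.4% of all genes): Mx2, Usp18, Dhx58, Gbp7 and Rtp4. An unadjusted p under 0.05 was reached by Irf7, Dhx58 and Rtp4, which is 3 members (2.29% of all genes). This median rested largely on 1 library. Without ZT2 replicate 2 it was -0.11, with 29 of 35 members lower, and without the library of each time that was richest in muscle transcripts it was -0.10, with 27 of 35 lower.

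Between ZT20 and ZT8 the fitted value was lower at ZT20 in 32 of 35 members, against 49.5% of all genes, with a median of -0.26. The exceptions were Gbp2, Stat2 and Parp9, with log2 fold changes of 0.11, 0.05 and 0.01. The levels of Ifit2, Ifi44, Ifi27l2a and Mx1 did not overlap between these times (4 members, 4.54% of all genes), and 7 members had an unadjusted p under 0.05 (2.41%). This median moved with single ZT20 libraries. It was -0.10 without replicate 1 and -0.47 without replicate 2, each a move of over 1.5 times, and -0.11 without the 4 libraries richest in muscle transcripts, with 21 of 35 members lower. ZT14 against ZT2 and ZT20 against ZT8 share no library, whereas ZT14 against ZT8 shares its libraries with both.

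**Figure D1:**
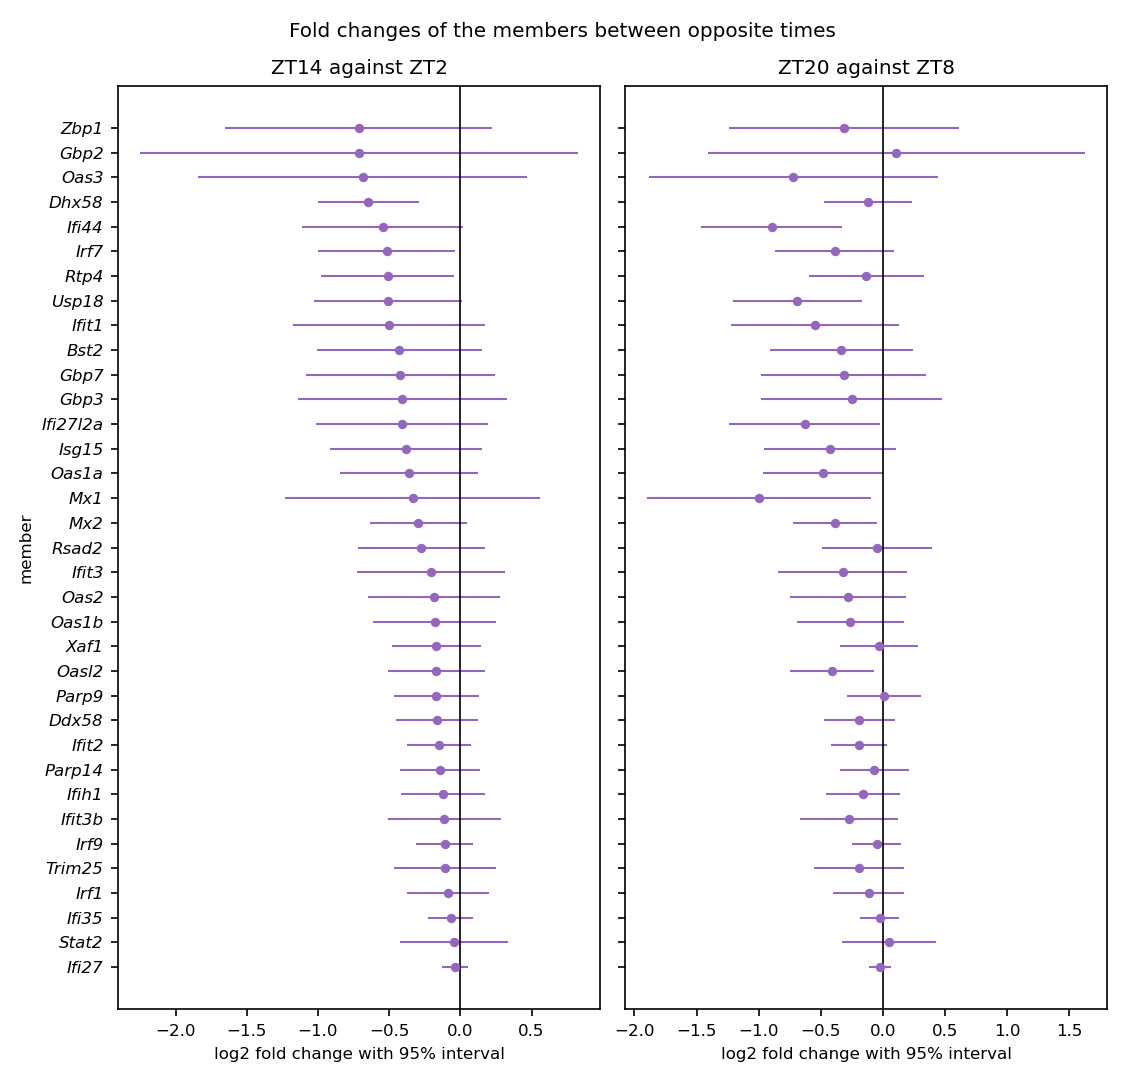
Log2 fold change of each of the 35 members (points, with bars for the 95% interval of the edgeR fit) at ZT14 against ZT2 on the left and ZT20 against ZT8 on the right. Points lie left of 0 for 35 and 32 members, and most intervals cross 0.

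A cosine of 24 h fitted to the 4 time means peaked between hour 2 and hour 8 for 32 of 35 members, against 26.4% of all genes, the exceptions being Stat2, Gbp2 and Parp9. The fitted amplitude had a median of 0.22 on the log2 scale, against 0.096 over all genes. An amplitude cannot fall below 0, so spread between libraries raises it, and the members had more such spread than most genes (described below). The member median was 0.11 without the 4 libraries richest in muscle transcripts. It was 0.145 without ZT2 replicate 2 and 0.32 without ZT20 replicate 2. The position of the peak is set by the same pairs of times as the counts above. Without the 4 libraries richest in muscle transcripts it fell in that interval for 14 of 35 members, so it moved with the libraries used.

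Among the sensors of foreign nucleic acid, Dhx58 had the lowest p. It encodes LGP2, a helicase that tunes the RNA sensors, and its levels were 4.08, 5.87 and 4.16 CPM at ZT2, 3.74, 4.26 and 4.08 at ZT8, 3.18, 2.91 and 2.92 at ZT14, and 3.34, 4.56 and 3.24 at ZT20. All 3 ZT14 libraries were below each of the other 9. The log2 fold change at ZT14 against ZT2 was -0.65 (SE 0.16, 95% interval -1.003 to -0.29, adjusted p = 0.467 in edgeR's quasi-likelihood test). Dhx58 was the only member whose ZT20 libraries all lay above its ZT14 libraries (5.75% of all genes did so).

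Ifih1, which encodes the long-RNA sensor MDA5, ranged only from 3.53 to 5.14 CPM, and Ddx58, which encodes RIG-I, from 18.5 to 29.1 CPM. Trim25, a ubiquitin ligase that acts on RIG-I, ranged from 9.07 to 14.7 CPM. These 3 were lowest in ZT20 replicate 1. Zbp1 senses left-handed nucleic acid and can trigger cell death. Its levels were 1.95, 3.29 and 1.34 CPM at ZT2, 1.87, 2.00 and 3.27 at ZT8, 1.58, 1.55 and 0.868 at ZT14, and 1.55, 3.08 and 1.11 at ZT20. The highest library of a time exceeded the lowest 2.46-fold at ZT2 and 2.78-fold at ZT20, a wider spread than that between the time means, which ran from 1.33 to 2.38 CPM.

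Among the regulators, Usp18 removes ISG15 from proteins and blocks the type I receptor. Its levels were 7.02, 8.80 and 5.35 CPM at ZT2, 7.19, 10.5 and 9.68 at ZT8, 5.15, 5.00 and 4.76 at ZT14, and 4.08, 7.82 and 5.08 at ZT20. Every ZT2 and ZT8 library was above all 3 ZT14 libraries, while ZT20 replicate 2 reached the range of ZT8. The log2 fold change at ZT14 against ZT8 was -0.88 (SE 0.24, 95% interval -1.40 to -0.36, adjusted p = 0.487 in edgeR's quasi-likelihood test).

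Stat2 carries the activating domain of the interferon-bound complex. Its levels were 48.0, 48.7 and 47.9 CPM at ZT2, 51.2, 53.1 and 41.0 at ZT8, 44.7, 47.4 and 48.0 at ZT14, and 36.9, 67.0 and 46.5 at ZT20. The ZT20 libraries thus held both the lowest and the highest value, and the 4 means lay between 46.7 and 50.1 CPM. Irf9, its DNA-binding partner, ranged from 17.9 to 24.2 CPM, with both ends also in ZT20 libraries. Irf7, the factor that amplifies interferon production, had means of 13.8 ± 3.6, 14.2 ± 2.4, 9.68 ± 1.7 and 10.8 ± 2.5 CPM (SD, n = 3) at ZT2, ZT8, ZT14 and ZT20.

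Irf1, a factor that interferon gamma induces directly, had 20.4, 23.6 and 20.1 CPM at ZT2, 20.2, 20.8 and 26.3 at ZT8, 20.6, 20.0 and 19.6 at ZT14, and 18.8, 25.3 and 18.2 at ZT20. It was chosen for full values after they were seen, as were Isg15, Ifit1 and Ifit3. In Irf1, 9 libraries lay within 18.2 to 20.8 CPM, and the other 3 stood above them, 1 each at ZT2, ZT8 and ZT20. Parp9 and Parp14, members of the ADP-ribosyltransferase family, ranged from 5.67 to 8.15 and from 4.36 to 6.29 CPM, both highest in ZT20 replicate 2.

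The next set comprises the proteins that act on virus and microbe directly, beginning with the Ifit family, whose products bind foreign RNA ends. Ifit1 had 12.6, 18.5 and 9.13 CPM at ZT2, 15.4, 16.3 and 12.2 at ZT8, 8.61, 10.3 and 9.51 at ZT14, and 6.16, 14.6 and 9.25 at ZT20. Ifit3 had 20.5, 33.5 and 21.1 CPM at ZT2, 26.4, 31.1 and 30.4 at ZT8, 23.1, 23.6 and 18.5 at ZT14, and 18.0, 32.0 and 20.3 at ZT20. In both genes the highest ZT2 and ZT20 library was replicate 2, and the 3 ZT8 libraries were above all 3 ZT14 libraries. Ifit2 ranged from 14.4 to 20.2 CPM and Ifit3b from 9.36 to 16.0 CPM. Of the 50-base words of the Ifit3 transcripts, 51.2% also occur in Ifit3b, so the division of reads between these paralogs is uncertain.

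Isg15, the ubiquitin-like modifier that Usp18 removes, had 13.4, 19.2 and 11.4 CPM at ZT2, 14.6, 14.6 and 14.4 at ZT8, 10.4, 12.6 and 10.7 at ZT14, and 7.54, 15.4 and 9.53 at ZT20. Its ZT8 libraries nearly coincided, at 14.5 ± 0.083 CPM (SD, n = 3), whereas those of ZT20 differed 2.04-fold between the lowest and the highest. The log2 fold change at ZT14 against ZT8 was -0.37 (SE 0.24), which the 95% interval of -0.90 to 0.16 did not separate from 0.

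The oligoadenylate synthetases make the messenger that activates RNase L. Oas3 was the lowest member, at 0.247, 0.679 and 0.203 CPM at ZT2, 0.254, 0.416 and 0.299 at ZT8, 0.210, 0.309 and 0.173 at ZT14, and 0.143, 0.321 and 0.125 at ZT20. Replicate 2 was the highest Oas3 library at all 4 times. Oas1a ranged from 2.37 to 4.87 CPM, Oas1b from 2.095 to 3.84 CPM and Oas2 from 1.23 to 2.38 CPM. Oas1a shares 57.6% of its words with Oas1g, so its level is uncertain in the same way as those of the Ifit paralogs, and the C57BL/6 strain carries a shortened Oas1b.

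Oasl2, a relative with ubiquitin-like domains, had 72.9, 67.6 and 52.9 CPM at ZT2, 69.7, 77.7 and 72.8 at ZT8, 56.1, 58.1 and 57.8 at ZT14, and 43.1, 70.0 and 52.8 at ZT20. The ZT14 libraries lay close together and below all 3 of ZT8, with a log2 fold change of -0.36 (SE 0.15). The ZT20 libraries ran from below every other library to the level of ZT8.

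Mx1 and Mx2 encode dynamin-like GTPases that trap viral particles, and the Mx1 allele of C57BL/6 mice is defective. Mx1 had 0.710, 1.87 and 0.880 CPM at ZT2, 1.52, 1.72 and 1.17 at ZT8, 0.741, 1.40 and 0.597 at ZT14, and 0.496, 0.956 and 0.746 at ZT20. Its ZT20 libraries were all below its ZT8 libraries, a log2 fold change of -0.998 (SE 0.41, adjusted p = 0.936 in edgeR's quasi-likelihood test) and the most negative of the members in that pair of times. Mx2 had 2.88, 3.43 and 2.67 CPM at ZT2, 3.93, 3.86 and 2.68 at ZT8, 2.22, 2.58 and 2.51 at ZT14, and 2.57, 2.93 and 2.52 at ZT20. In Mx2 ZT8 replicates 1 and 2 stood above the other 10 libraries, and ZT8 replicate 3 did not.

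Rsad2 encodes viperin, which makes a chain-terminating nucleotide. It ranged from 5.92 to 11.4 CPM and was highest in ZT2 replicate 2. Bst2 encodes tetherin, which holds budding virus at the cell surface. Its levels were 31.2, 51.4 and 27.7 CPM at ZT2, 29.0, 43.8 and 48.9 at ZT8, 30.2, 25.8 and 25.9 at ZT14, and 28.3, 40.5 and 27.6 at ZT20. In Bst2, 8 libraries lay between 25.8 and 31.2 CPM, and 4 lay at 40.5 CPM or more.

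Rtp4, a Golgi chaperone of receptors, had 9.82, 15.2 and 11.3 CPM at ZT2, 13.3, 12.4 and 13.2 at ZT8, 9.16, 9.10 and 7.17 at ZT14, and 8.84, 16.2 and 10.5 at ZT20. All ZT14 levels were below those of ZT2 and ZT8, with a log2 fold change of -0.61 (SE 0.21) against ZT8. Xaf1, which opposes an inhibitor of cell death, ranged from 11.8 to 19.9 CPM.

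Ifi44 had the lowest p of the members for any difference between times and for the 24-h component. Its levels were 3.45, 4.61 and 2.25 CPM at ZT2, 3.55, 4.82 and 4.23 at ZT8, 2.11, 2.75 and 2.19 at ZT14, and 1.69, 2.92 and 2.15 at ZT20. Every ZT8 library was above all 6 libraries of ZT14 and ZT20, while those of ZT2 overlapped both. The log2 fold change at ZT20 against ZT8 was -0.90 (SE 0.26, 95% interval -1.46 to -0.33, adjusted p = 0.787 in edgeR's quasi-likelihood test), a 0.537-fold level.

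Ifi27, which encodes a small membrane protein, had the highest level and the smallest spread. It had 283.1, 290.4 and 276.8 CPM at ZT2, 257.4, 258.3 and 270.3 at ZT8, 279.3, 263.4 and 286.2 at ZT14, and 248.8, 265.9 and 259.1 at ZT20. Its ZT2 libraries were above all of ZT8 (5.56% of all genes) and all of ZT20 (7.21% of all genes), which held for no other member, while those of ZT14 overlapped the other 3 times. The pooled SD within a time was 0.05 on the log2 scale, and the alternation had an unadjusted p of 0.0039 in the edgeR fit (adjusted p = 0.461). Its relative Ifi27l2a had 57.6, 72.2 and 37.6 CPM at ZT2, 50.7, 62.1 and 52.4 at ZT8, 44.8, 37.9 and 43.5 at ZT14, and 24.9, 50.5 and 31.3 at ZT20. In Ifi27l2a all ZT20 libraries lay below all ZT8 libraries.

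Ifi35, a protein that pairs with NMI, had the smallest spread within a time after Ifi27. It had 30.3, 34.1 and 34.2 CPM at ZT2, 31.1, 32.4 and 31.5 at ZT8, 29.98, 31.6 and 32.5 at ZT14, and 29.2, 34.8 and 29.5 at ZT20. The pooled SD within a time was 0.093 on the log2 scale, and the 4 means differed by less than the spread at ZT20.

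The guanylate-binding proteins are large GTPases that gather on the compartments of intracellular microbes, and Gbp2 varied most of the 35 members between libraries of 1 time. Gbp2 had 13.8, 30.7 and 11.4 CPM at ZT2, 12.9, 11.9 and 37.7 at ZT8, 11.8, 12.7 and 9.65 at ZT14, and 12.6, 45.4 and 9.60 at ZT20. In Gbp2, 9 libraries lay between 9.60 and 13.8 CPM and 3 stood at 30.7 CPM or more, 1 each at ZT2, ZT8 and ZT20. The highest library exceeded the lowest 2.69-fold at ZT2, 3.16-fold at ZT8, 1.32-fold at ZT14 and 4.73-fold at ZT20. Its pooled SD within a time was 0.85 on the log2 scale, and the any-time adjusted p was 0.97 in edgeR's quasi-likelihood test.

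Gbp3 had 9.30, 17.1 and 9.74 CPM at ZT2, 11.3, 12.1 and 18.1 at ZT8, 9.55, 9.08 and 8.59 at ZT14, and 8.46, 17.9 and 8.54 at ZT20. The same 3 libraries were the highest as for Gbp2. Gbp7 had 7.60, 10.1 and 7.06 CPM at ZT2, 6.69, 7.33 and 9.03 at ZT8, 5.11, 6.85 and 6.56 at ZT14, and 3.34, 9.42 and 5.76 at ZT20. Its top 3 libraries were again these, but by a smaller margin, and 12.9% of its words occur in other genes.

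**Figure D2:**
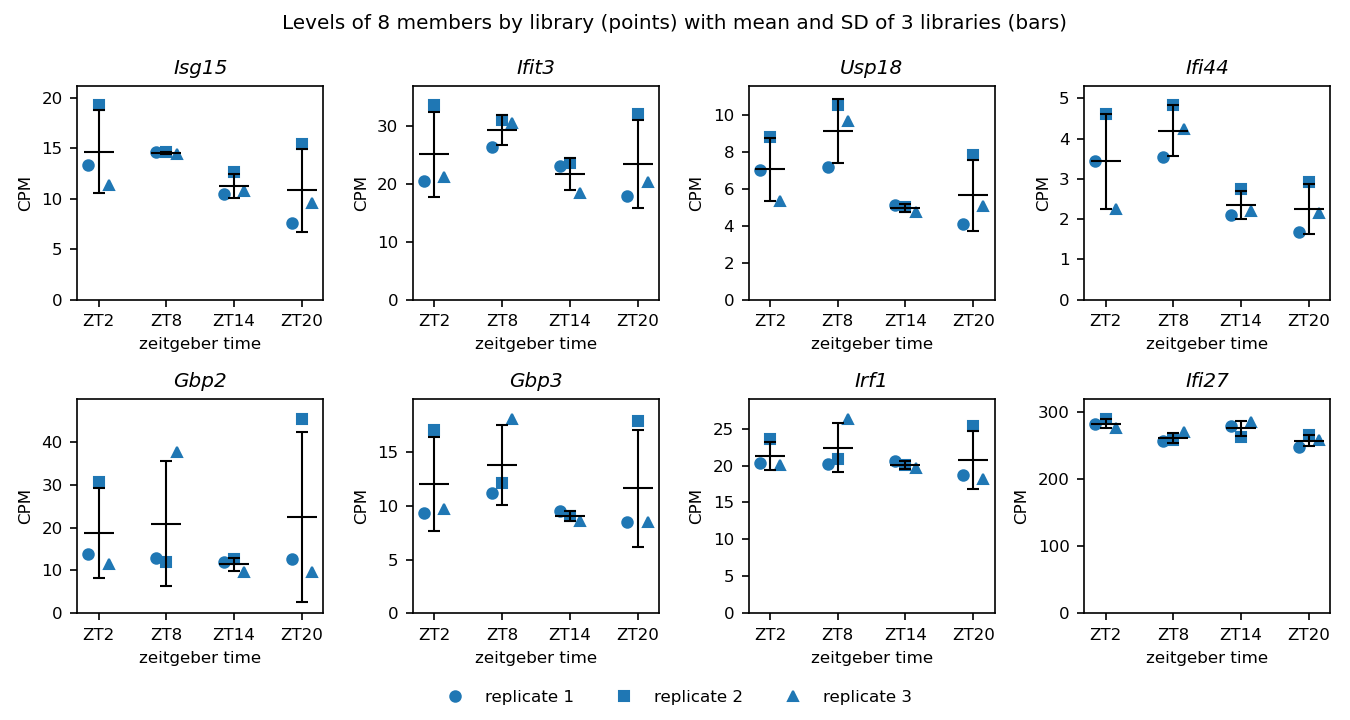
Levels of 8 members in CPM (vertical axis, from 0) at the 4 zeitgeber times, with 1 point per library and bars for the mean and SD of 3 libraries. Gbp2, Gbp3 and Irf1 each have 1 raised library at ZT2, ZT8 and ZT20, Isg15 has none at ZT8, and Ifi27 stays between 248.8 and 290.4 CPM.

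The members differed between libraries of 1 time more than most genes. Their pooled SD within a time had a median of 0.27 on the log2 scale, against 0.19 over all genes, and 26 of 35 exceeded the median of all genes (50%). The largest SDs belonged to Gbp2, to Oas3 at 0.61, to Zbp1 at 0.59, to Mx1 at 0.55, to Gbp3 at 0.44 and to Gbp7 at 0.43. Oas3, Mx1 and Zbp1 are also among the lowest in level, where counting error is larger.

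The spread was shared. ZT2 replicate 2 was the highest of its time for 31 of 35 members (34.6% of all genes), all but Oasl2, Ifi35, Irf9 and Trim25. ZT20 replicate 2 was the highest of its time for 34 of 35 (32.8% of all genes), all but Oas2. At ZT8, replicate 2 was the highest for 21 members (32.2% of all genes) and replicate 3 for 11 (39.5% of all genes). Those 11 were Gbp2, Gbp3, Gbp7, Irf1, Parp9, Parp14, Zbp1, Bst2, Xaf1, Ifit3b and Ifi27. At ZT14, where the libraries were closest, replicate 2 was the highest for 19 members (32.2% of all genes).

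The mean log2 CPM of the 35 members was 3.25, 3.69 and 3.14 in the ZT2 libraries, 3.35, 3.51 and 3.49 at ZT8, 3.04, 3.17 and 3.01 at ZT14, and 2.86, 3.54 and 3.00 at ZT20. As mean ± SD (n = 3) this was 3.36 ± 0.29, 3.45 ± 0.09, 3.07 ± 0.09 and 3.13 ± 0.36. The highest and the lowest ZT20 library were farther apart than any pair of time means. ZT20 replicate 1 was the lowest of its time for 24 members (38.6% of all genes), and it was also the library with the most muscle transcripts.

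**Figure D3:**
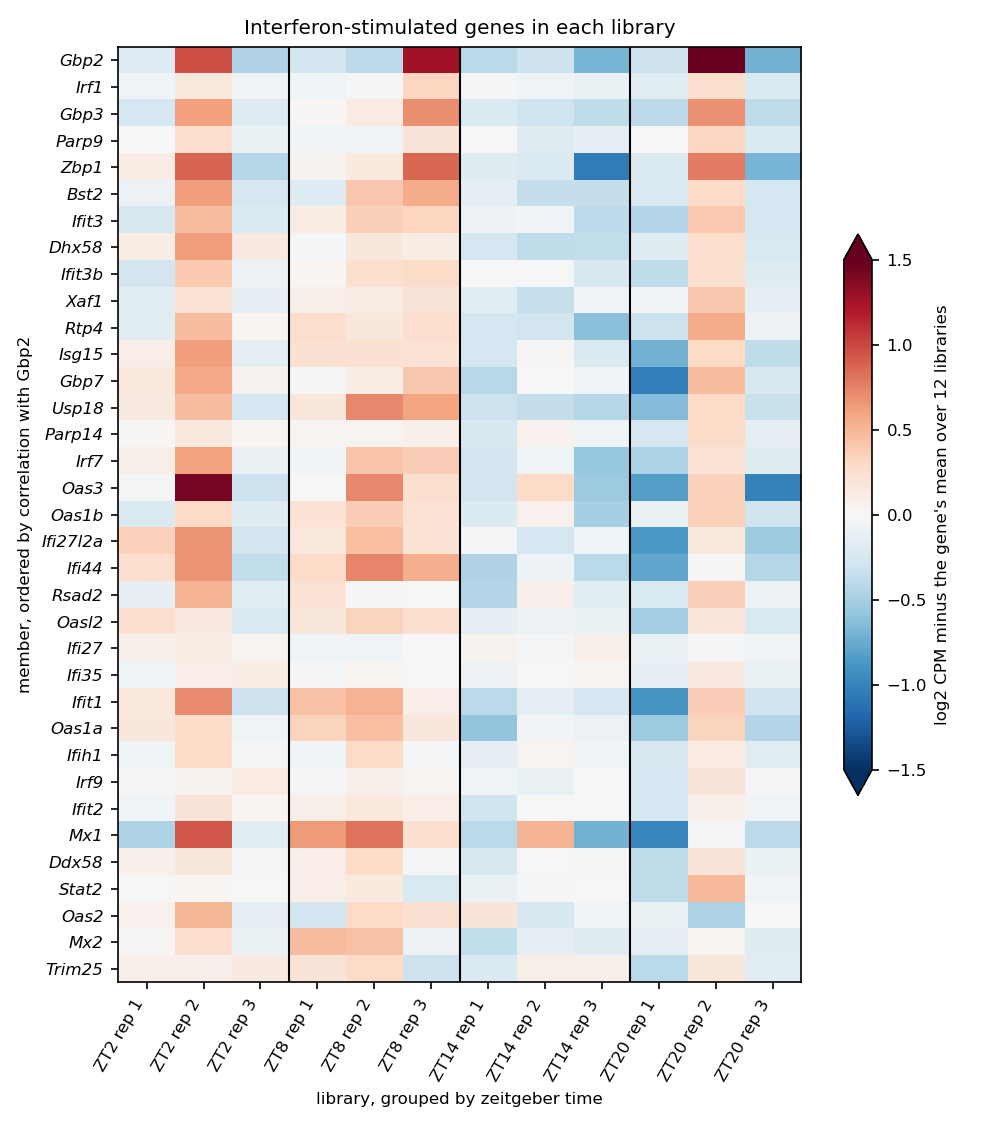
Log2 CPM of each of the 35 members (rows, ordered by correlation with Gbp2) in each of the 12 libraries (columns), minus the gene's own mean, with red above and blue below it. Rows near the top are red in ZT2 replicate 2, ZT8 replicate 3 and ZT20 replicate 2, and Stat2, Mx2 and Trim25 near the bottom are blue in ZT8 replicate 3.

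After the time means were removed, the deviations of the members were correlated over the 12 libraries, which share tissue makeup and depth within each point. The 595 pairs of members had a mean Pearson r of 0.60 and a median of 0.65, against a mean of 0.00033 over all pairs of genes tested. Scaling between libraries holds the mean over all genes near 0, so it says little about other sets of related genes. Removing the time means left 8 residual degrees of freedom. Of the 595 pairs of members, 570 were above 0 and 442 above 0.5. The mean was 0.40 without ZT20 replicate 2 and 0.17 without the 3 libraries highest in Gbp2. Without ZT8 replicate 3 alone, which is 1 of those 3, it was 0.67.

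The pairs did not all move alike. Irf1, Gbp3, Parp9 and Zbp1 were closest to Gbp2, with r of 0.98, 0.96, 0.93 and 0.92. Isg15 was closer to Ifit1, at 0.95, than to Gbp2, at 0.75. Ifit1 and Gbp2 had an r of 0.53, Mx1 and Gbp2 0.39, and Stat2 and Gbp2 0.32. Mx2, Trim25 and Oas2 had r near 0 with Gbp2, at -0.02, -0.05 and 0.05. At ZT8 Gbp2 was raised in replicate 3 alone. That library was the lowest of its time for 9 members (35.3% of all genes), namely Ifit1, Stat2, Oas1a, Mx1, Mx2, Rsad2, Ddx58, Trim25 and, by a small margin, Isg15. Neither this share nor that of the 11 members highest in it exceeded the share of all genes. Oas2 differed from Gbp2 elsewhere: it was the only member lowest of its time in ZT20 replicate 2, at 1.23 CPM. Trim25 was the only member lowest of its time in ZT2 replicate 2, at 12.7 CPM.

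**Figure D4:**
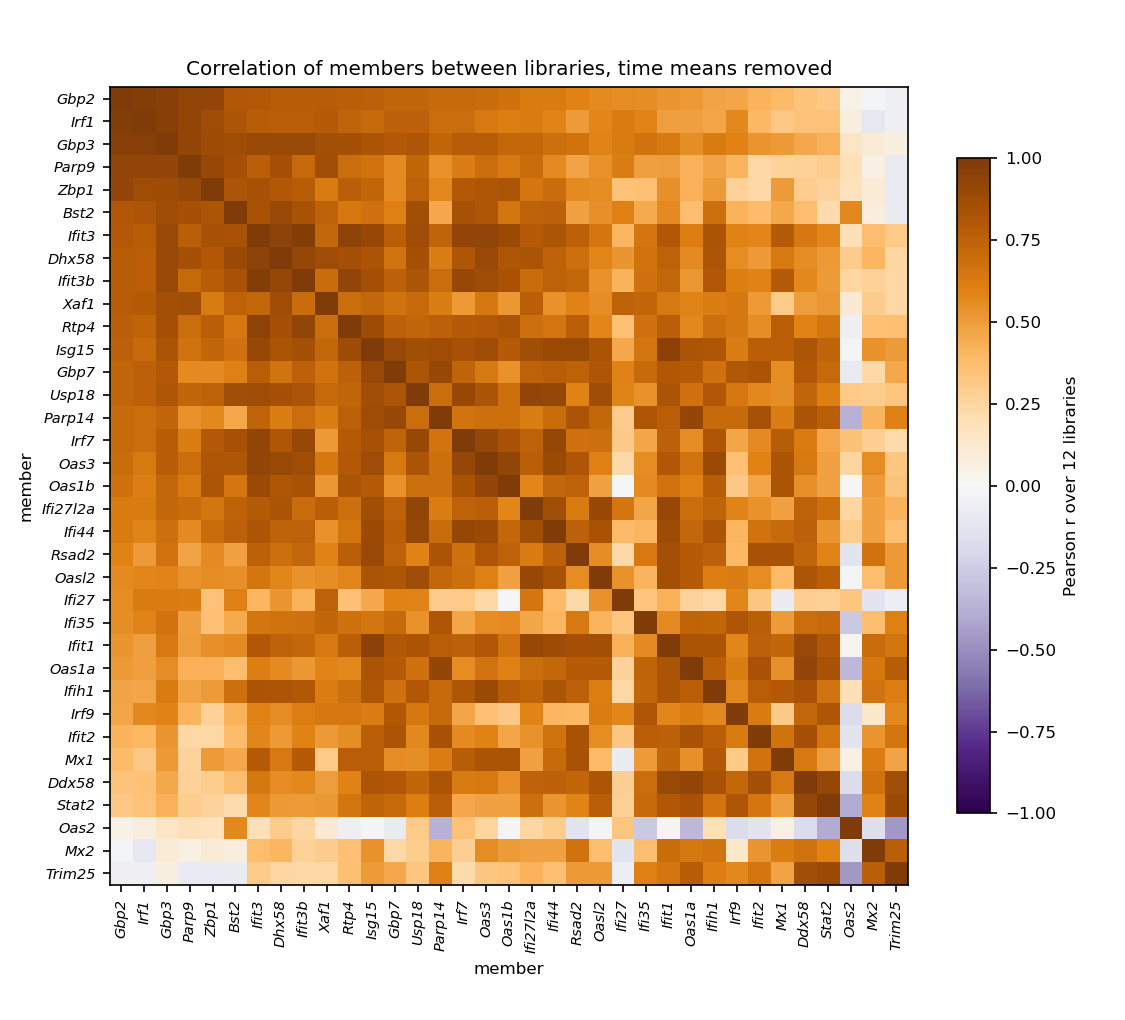
Pearson r between each pair of the 35 members over 12 libraries after the time means were removed, on a scale from -1 to 1 and in the order of r with Gbp2. The block of Gbp2, Irf1, Gbp3, Parp9 and Zbp1 is dark in the top corner, and the row of Oas2 is pale or below 0 throughout most of its length.

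Cell type markers were read in the same libraries. The 10 macrophage markers summed to 103.6, 113.5 and 76.1 CPM at ZT2, 76.6, 82.9 and 123.0 at ZT8, 108.4, 104.0 and 86.5 at ZT14, and 102.1, 99.9 and 87.5 at ZT20. The 8 markers of T and B lymphocytes summed to 5.21, 7.44 and 5.04 CPM at ZT2, 3.98, 4.18 and 7.40 at ZT8, 6.79, 5.05 and 4.16 at ZT14, and 5.27, 3.69 and 4.06 at ZT20, with Cd3d and Cd8a at 0 in some libraries. Both sums were highest of their time in ZT2 replicate 2 and ZT8 replicate 3, where Gbp2 was raised. Of the lymphocyte sum, Nkg7, which other cells also express, gave 1.96 CPM in ZT2 replicate 2 and 1.43 CPM in ZT8 replicate 3. In ZT20 replicate 2, which had the highest Gbp2 of all, the lymphocyte sum was the lowest of all libraries and the macrophage sum was the middle value of its time.

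The 10 skeletal muscle markers summed to 331.5, 362.9 and 79.3 CPM at ZT2, 140.5, 84.0 and 375.5 at ZT8, 443.0, 136.9 and 199.9 at ZT14, and 965.5, 26.6 and 114.5 at ZT20. They were highest of their time in ZT2 replicate 2 and ZT8 replicate 3 but lowest of all in ZT20 replicate 2. With the 4 libraries richest in muscle left out, the mean r between members was 0.63, against 0.60 with them. That setting leaves fewer libraries at each time and keeps ZT20 replicate 2, without which alone the mean r was 0.40. A part of muscle transcripts in the shared spread was not tested. Plasmacytoid dendritic cell markers other than the member Bst2 summed to 13.6 to 19.1 CPM, of which Tcf4, which other cells also express, gave a mean of 15.1 CPM. Siglech, the more specific marker, went both ways in the libraries with raised Gbp2. It was at 0.315 CPM in ZT2 replicate 2, the lowest of the 12 libraries. In ZT8 replicate 3 it was at 0.754 CPM, the highest of the 12, and in ZT20 replicate 2 at 0.364 CPM, the lowest of its time. The 8 neutrophil or bone marrow markers summed to 60.3 to 139.5 CPM at ZT2, 63.9 to 84.5 at ZT8, 68.4 to 102.6 at ZT14 and 23.8 to 41.4 at ZT20. The 6 erythroid markers summed to 1664 to 3992 CPM at ZT2, 2214 to 2405 at ZT8, 3690 to 4038 at ZT14 and 780.6 to 1231 at ZT20. Both were thus lowest at ZT20, without overlap with the other times. Any part that the cells of these markers may have in the results was likewise not tested.

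The rest of the pathway was read from lists of 117 further genes, of which 110 matched a row and 105 were tested. None of the 105 passed the adjusted threshold in edgeR's quasi-likelihood test for any difference between times, for the 24-h component, for the alternation or for a pair of times. At an unadjusted p under 0.05 there were 5 of 105 for any difference (6.19% of all genes), namely Ifnar1, Socs3, Ifitm1, Ifi213 and Lgals3bp. The unadjusted counts were 5 for the 24-h component (5.2% of all genes), 3 for the alternation (7.44%) and 16 for at least 1 pair of times (20.3%). Limma-trend called 0 of the 105 after adjustment, with 5 at an unadjusted p under 0.05 for any difference (6.71% of all genes). DESeq2 called 3 after adjustment, namely Socs3, Ifitm1 and Lgals3bp, with 5 at an unadjusted p under 0.05 for any difference (8.06% of all genes). The share of all genes that DESeq2 called after adjustment is not given here, so the 3 calls have no background beside them. Socs3, which restrains cytokine receptors, had 10.6, 11.5 and 9.61 CPM at ZT2, 9.90, 9.79 and 9.40 at ZT8, 16.2, 13.8 and 13.8 at ZT14, and 6.75, 10.8 and 8.72 at ZT20. Its 3 ZT14 libraries were above all others, the opposite side from most members (adjusted p = 0.346 in edgeR's quasi-likelihood test).

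The interferons themselves were all but unread. Of 11 ligand genes 5 matched a row, and none passed the filter. Ifng, which encodes interferon gamma, was listed at 0.160 CPM in ZT2 replicate 2, 0.0708 in ZT8 replicate 3, 0.0520 in ZT20 replicate 2, 0.0357 in ZT2 replicate 1 and 0.0343 in ZT8 replicate 1, and at 0 in the other 7 libraries. Ifnb1, which encodes interferon beta, was above 0 in ZT8 replicate 1 alone. With no ligand past the filter, no comparison was made.

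All 6 receptor genes were present, and none was called different between times. Ifnar1 averaged 28.5 CPM, Ifnar2 31.1, Ifngr1 34.4, Ifngr2 54.3, Il10rb 42.5 (22.0 to 57.9 over the 12 libraries) and Ifnlr1, the receptor of the lambda interferons, 0.769 CPM. Their mean pairwise r was -0.055. Of the 6, 0 were highest of their time in ZT2 replicate 2 (34.6% of all genes). In ZT20 replicate 2 (32.8% of all genes) and in ZT8 replicate 3 (39.5% of all genes) the count was 3 each. Among the kinases and transcription factors, Jak1 averaged 197.0 CPM, Jak2 11.6, Tyk2 9.76 and Stat3 209.2 CPM.

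Of the 72 other interferon-induced genes listed, all were tested, and their mean pairwise r was 0.47. They were highest of their time in ZT2 replicate 2 for 64 genes, in ZT20 replicate 2 for 59 and in ZT8 replicate 3 for 51, where the shares of all genes were as given above. Cxcl9, a chemokine that interferon gamma induces and that draws T cells, had 1.47, 5.99 and 0.221 CPM at ZT2, 0.513, 0.362 and 4.27 at ZT8, 1.02, 0.545 and 0.236 at ZT14, and 0.558, 2.37 and 0.469 at ZT20. It was named after its values were seen, and its 3 highest libraries were those of Gbp2.

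By the likeness rule, the 10 genes outside the list whose deviations followed the mean of the members most closely included Ifit1bl1 (r 0.969), Klrc1, Slc5a5, Rmi2, Faf1, Cd274, H2-T22, Bnipl and Ifi204 (r 0.918), over the 12 libraries. Klrc1, Rmi2 and Bnipl averaged under 0.5 CPM. The genes closest to Gbp2, a search made after its values were seen, began with the immunity-related GTPases Irgm1 and Irgm2, with r of 0.99 each, then Irf1, Ifi47, Gbp5 and Igtp. Igtp had 34.5, 50.8 and 31.5 CPM at ZT2, 34.5, 35.9 and 54.5 at ZT8, 33.1, 31.8 and 31.1 at ZT14, and 29.9, 63.6 and 30.4 at ZT20. As in Gbp2, 1 library each at ZT2, ZT8 and ZT20 stood above the other 9.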

How the data were processed

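Messenger RNA of dorsal root ganglia was sequenced as paired 150-base reads in 12 libraries. Per the submitters' processing notes, HISAT2 2.2.1, StringTie 2.1.5 and build GRCm38.p6 were used, with roles not given in the sources used here. Values in the deposited table are estimated counts per gene, not whole numbers. They look coverage-scaled: the commonest value of a library, 16.4 to 17.2, was shared by genes of 12 to 3559 bases. Totals were therefore not taken as reads, which were approximated as 47.9 to 67.1 in units of 1000000. The 348 assembled loci were left out (0.203% to 0.231% of a total). Symbols came from GENCODE M21, by Ensembl ID without version. No unmapped column was used.

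Rounded values were tested in edgeR 4.0.16 (filterByExpr, TMM scaling, robust quasi-likelihood, 1 model of the 4 times, Benjamini-Hochberg over 25809 genes), and log2 CPM used a prior count of 2. The script was tested on simulated data. No 2 libraries held identical values. Members and lists were chosen with earlier results of these data known. Full values are given for any member past the threshold, the 6 with the lowest any-time p, the 6 highest and the 6 of largest SD within a time. Alternatives were DESeq2 1.42.0, DESeq2 size factors in edgeR, limma-trend (limma 3.58.1), no filter, length scaling, approximate reads, a replicate block and left-out libraries. Strand handling, not given in the sources used here, leaves reads of antisense genes possibly mixed in. Values of 1 pathway gene are not reported here.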

Additional observations from a re-analysis of the deposited data

How the results depend on the processing

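In all 21 alternative settings 0 of 35 members passed the adjusted threshold in the any-time test, the 24-h test, the 12-h alternation and the 6 pairs of times; the lowest adjusted p of a member over these settings was 0.124 for any difference and 0.106 for the 24-h component. The member median kept its sign in every setting. For ZT14 against ZT2 it ranged from -0.37 to -0.11 when each library was left out in turn, and for ZT20 against ZT8 from -0.47 to -0.10. The mean pairwise r of the members was 0.394 with a replicate block, ranged from 0.405 (without ZT20 replicate 2) to 0.666 over the left-out libraries, and was 0.170 without the 3 libraries highest in Gbp2, a setting chosen after seeing the data. The log2 fold change of Gbp2 at ZT20 against ZT14, 0.98 as reported, was -0.049 both without ZT20 replicate 2 and without those 3 libraries, and that of Stat2, 0.10 as reported, was -0.169 in both; over the left-out libraries they reached 1.35 and 0.284. The cause was not tested. Same-numbered libraries were treated as unpaired. Of 18 such pairs 0 had deviations correlated above 0.1, and 3 libraries correlated best with one of their own number. The block left the count of called members at 0. Replicate 2 was the highest of its time for 31, 21, 19 and 34 of 35 members at ZT2, ZT8, ZT14 and ZT20. The shares of all genes were 34.6%, 32.2%, 32.2% and 32.8%. Whether same-numbered libraries share an animal or a batch was not tested. Exact read depth is unknown, which limits members of low level such as Oas3, Mx1 and Oas2. With 3 libraries a time, wide intervals leave differences of the sizes seen undecided.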
